A study of Mus musculus with 6 samples.

Results

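The genes described here are those of the BMP, activin and TGF-beta pathway that had a row in the table of expressed genes of mouse neural progenitor cells (NPCs). They were matched by their symbols, in a choice made with earlier results of these data known. The symbols were those of BMP, GDF, TGF-beta, nodal and inhibin beta ligands, their receptors, the Smads, the secreted inhibitors and the Id genes. This gave 52 of the 15095 genes of the table. The table rests on 3 libraries of Setd2-KO NPCs and 3 libraries of wild-type NPCs. Cells of both genotypes were grown from mouse embryonic stem cells as floating aggregates, for 4 days without and then 4 days with 5 uM retinoic acid, and their polyA RNA was sequenced at day 8. SETD2 is the methyltransferase that places H3K36me3 on transcribed gene bodies. The knockout is present from the stem cell stage onwards, and the stage at which it acts cannot be told from these data. The paper lists a CRISPR-made Setd2-KO line on the HA36CB1 stem cell background, isogenic with its wild type. Whether each library was an independent differentiation is not stated.

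Ligands of this family bind a pair of type I and type II receptor kinases, and the type II kinase activates the type I kinase. BMP-type receptors then phosphorylate Smad1, Smad5 and Smad9, whereas activin, nodal and TGF-beta receptors phosphorylate Smad2 and Smad3, and all of these act with Smad4 on target genes such as the Id genes. In the early ectoderm BMP signals favour epidermis over neural tissue, and secreted antagonists such as noggin and chordin block them, while later in the neural tube BMPs pattern the dorsal side and Id proteins hold progenitors back from differentiation.

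Each gene has a single usable value in the authors' deposited table, the average log2 CPM (read counts scaled to a common library size) over all 6 libraries of both genotypes. The values below are therefore levels over both genotypes pooled. They carry no SD, no test could be made on them, and no statement is made on whether a gene differed between Setd2-KO and wild-type NPCs. The average CPM was divided by the length of the canonical transcript, so that genes could be set side by side, and the result is the level, in CPM per kb. The range given after a level is that over 4 measures of transcript length, which shows how far the choice of length moves it and is not a replicate error. In RNA from whole cultures, fewer cells that express a gene and less RNA per cell cannot be told apart.

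The level of the pathway genes ranged from 0.0460 CPM per kb for Bmp3 to 161 CPM per kb for Id3, with a median of 2.41 CPM per kb, beside a median of 6.82 CPM per kb over all 15066 genes with a length. Of the 52 genes, 18 lay above the median of all genes and 34 below it, 11 lay above the 75th percentile of all genes and 18 below the 25th. The groups of the pathway differed in where they lay. The Id genes (median 43.8 CPM per kb) and the Smads (19.3) stood highest, the type I receptors (6.48) lay near the median of all genes, and the type II receptors (1.56), the inhibitors (1.52) and the ligands (0.610) lay below it. These are descriptions of a list chosen by name, with no test.

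**Figure D1:**
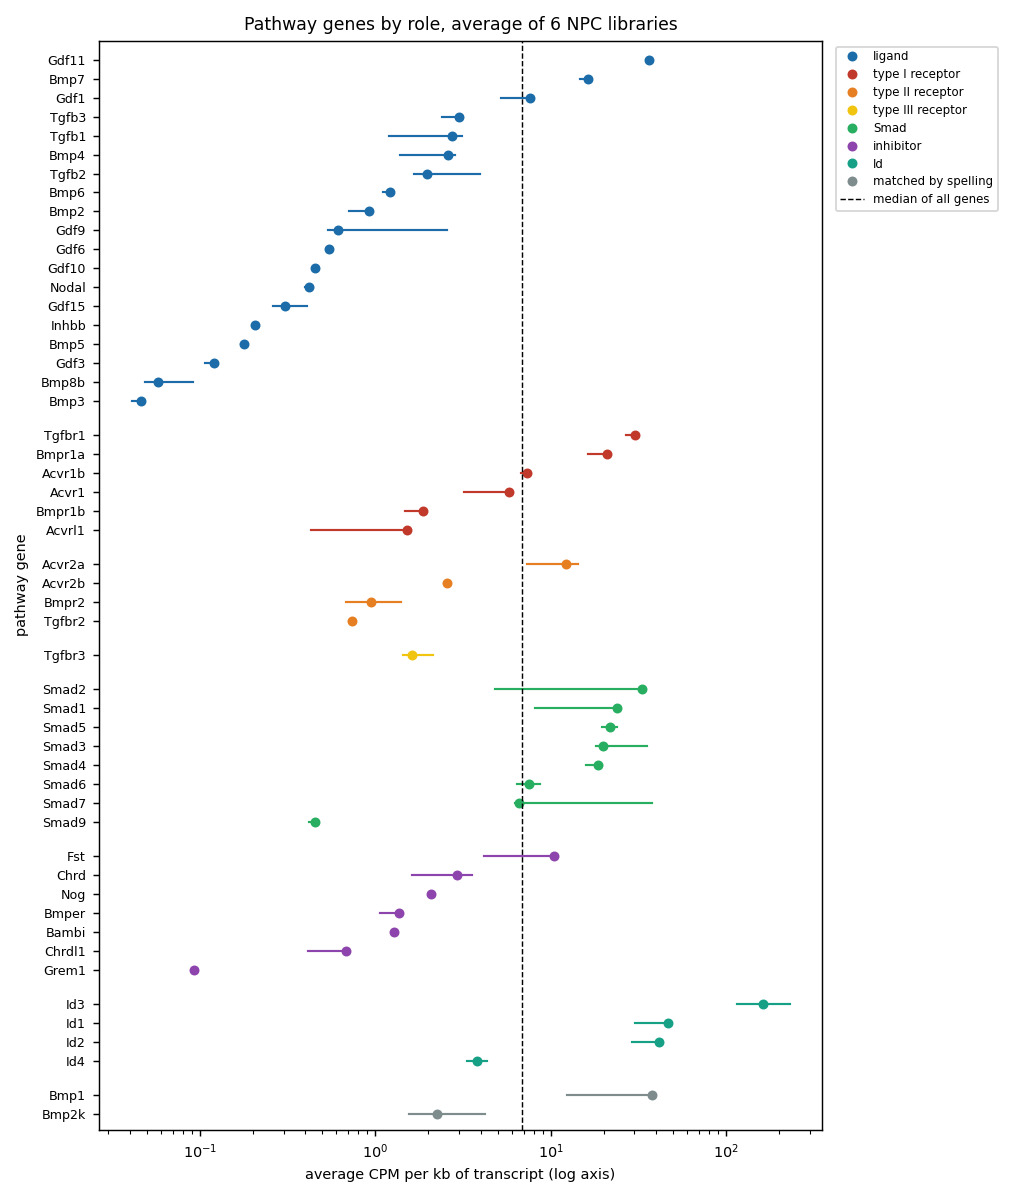
Level of 51 of the 52 pathway genes (y axis, ordered within its role) in average CPM per kb of transcript (x axis, log scale), over the 6 libraries of both genotypes; points use the canonical transcript, horizontal lines span the 4 length measures, and the dashed line is the median of all genes (6.82 CPM per kb). The dashed line is drawn for the canonical transcript and would itself move with the length measure, so it is to be compared with the points and not with the ends of the lines. Of the 19 ligands, 3 lie to the right of the dashed line, against 6 of the 8 Smads and 3 of the 4 Id genes. The 3 ligands include the row named Gdf1, whose value cannot be taken as that of Gdf1 alone.

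The Id genes, which encode helix-loop-helix proteins without a DNA-binding domain and are direct targets of BMP signalling in many cells, held the highest value of the pathway. Id3 (chromosome 4, 135870808 to 135873066, GRCm39) had an average log2 CPM of 7.69 and a level of 161 CPM per kb (115 to 230), which placed it at the 97.9th percentile of all genes. Id1 (chromosome 2, 152566218 to 152579544) had a level of 46.4 CPM per kb (30.2 to 46.4) and Id2 (chromosome 12, 25143798 to 25147282) a level of 41.3 CPM per kb (29.2 to 42.4). Id4 (chromosome 13, 48414558 to 48419502) stood apart from the others with 3.82 CPM per kb (3.32 to 4.31), below the median of all genes. The level of Id3 was 42.2 times that of Id4 and 3.48 times that of Id1, and these ratios stayed within 34.7 to 53.3 and 3.48 to 4.97 over the length measures. Id3 alone made up 63.8% of the summed level of the Id genes, and between 63.8% and 71.2% over the length measures.

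The promoters of the Id genes are shown because these close relatives span a wide gap in level. The sequences are the 250 bases before the RefSeq start site (GRCm38.p6), written 5′ to 3′ on the strand of the gene. Capitals mark GGCGCC, a GC-rich element that Smad proteins can bind, which reads the same on both strands. The stretch of Id2 is chr12:25096093-25096342 on the minus strand, that of Id3 is chr4:136143572-136143821 on the plus strand and that of Id4 is chr13:48260866-48261115 on the plus strand. Id1 was not matched to a window.
Id2: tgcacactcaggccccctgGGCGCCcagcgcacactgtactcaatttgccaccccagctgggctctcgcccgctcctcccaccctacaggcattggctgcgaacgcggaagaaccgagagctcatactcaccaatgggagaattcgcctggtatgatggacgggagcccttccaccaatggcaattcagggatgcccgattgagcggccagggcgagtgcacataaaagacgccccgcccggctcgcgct
Id3: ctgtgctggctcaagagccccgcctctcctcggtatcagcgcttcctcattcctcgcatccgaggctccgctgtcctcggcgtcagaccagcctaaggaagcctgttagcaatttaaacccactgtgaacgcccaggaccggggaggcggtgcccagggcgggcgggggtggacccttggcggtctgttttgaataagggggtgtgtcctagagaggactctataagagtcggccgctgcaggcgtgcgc
Id4: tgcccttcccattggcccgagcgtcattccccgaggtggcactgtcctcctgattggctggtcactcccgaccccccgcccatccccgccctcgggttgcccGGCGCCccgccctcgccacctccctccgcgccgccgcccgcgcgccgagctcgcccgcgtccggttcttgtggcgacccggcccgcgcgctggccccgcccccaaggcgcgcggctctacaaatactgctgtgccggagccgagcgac

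GGCGCC was found once before the start of Id2, beginning 231 bases upstream, and once before that of Id4, beginning 148 bases upstream. It was not found in the window of Id3, the gene with the highest level. A match is a description of the letters and not a bound site, and binding was not measured here.

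Of the ligands, Gdf11 and Bmp7 stood far above the rest. Gdf11 (chromosome 10, 128718164 to 128727747), a ligand of activin-type receptors that limits neurogenesis in the olfactory epithelium of the mouse, had an average log2 CPM of 7.25 and a level of 36.2 CPM per kb under every length measure, since the annotation holds 1 transcript of it. Bmp7 (chromosome 2, 172709805 to 172782410), a dorsalising BMP of the roof plate, had an average log2 CPM of 6.02 and a level of 16.4 CPM per kb (14.7 to 16.6). Gdf11 and Bmp7 together made up 69.5% of the summed level of the 19 ligands, and 65.3% to 75.6% over the length measures.

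Among the 7 BMP ligands, Bmp7 made up 76.5% of the summed level. Bmp4, the classical inhibitor of neural induction, had 2.61 CPM per kb (1.39 to 2.85), and the level of Bmp7 was 6.28 times as high (5.82 to 10.6). Bmp6 lay at 1.21 and Bmp2 at 0.922 CPM per kb. Bmp5 (0.180), Bmp8b (0.0580) and Bmp3 (0.0460 CPM per kb) were among the 8 pathway genes whose average log2 CPM was below 0, with Gdf3, Gdf15, Nodal, Inhbb and Grem1. Bmp8b has a near-identical neighbour, Bmp8a, so that its reads may have been shared and its value is uncertain.

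The GDF ligands other than Gdf11 were low, apart from the row named Gdf1. That row had 7.65 CPM per kb (5.23 to 7.81), but GENCODE vM39 gives its identifier to Cers1, a ceramide synthase gene that shares a transcript with Gdf1, and the value cannot be taken as that of Gdf1 alone. The row stays in the counts and sums of the ligands. It lay above the median of all genes by the canonical transcript but below it by the median transcript length. Gdf9, an oocyte factor, had 0.610 CPM per kb (0.538 to 2.55), Gdf6 had 0.547, Gdf10 0.452, the stress-induced Gdf15 0.307 and Gdf3, a factor of pluripotent cells, 0.120 CPM per kb.

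The activin, nodal and TGF-beta ligands all lay below the median of all genes. Tgfb3 (3.0 CPM per kb, 2.39 to 3.12), Tgfb1 (2.75, 1.2 to 3.11) and Tgfb2 (1.98, 1.65 to 3.97) were the highest of them. They lay close to one another and to Bmp4. The order of Tgfb1, Bmp4 and Tgfb2 turned with the length measure, and by the median transcript length Tgfb2 lay above Tgfb3. Nodal, the mesendoderm-inducing ligand of the early embryo, had 0.419 CPM per kb and Inhbb, the activin B subunit, had 0.206. The activin A subunit gene Inhba is not analysed here.

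The promoters of Gdf11 and Nodal, ligands that both use activin-type receptors, show a CpG-rich and a CpG-poor start. The level of Gdf11 lay at the 86.7th percentile of all genes and that of Nodal at percentile 13.3. Each stretch is the 250 bases before the RefSeq start (GRCm38.p6), at chr10:128891719-128891968 on the minus strand for Gdf11 and chr10:61417722-61417971 on the plus strand for Nodal, with every CG in capitals.
Gdf11: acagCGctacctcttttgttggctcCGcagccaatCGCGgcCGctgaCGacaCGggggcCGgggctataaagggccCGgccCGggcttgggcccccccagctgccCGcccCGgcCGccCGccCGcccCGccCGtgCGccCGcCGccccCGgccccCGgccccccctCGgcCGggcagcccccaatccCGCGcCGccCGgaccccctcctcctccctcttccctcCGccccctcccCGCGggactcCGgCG
Nodal: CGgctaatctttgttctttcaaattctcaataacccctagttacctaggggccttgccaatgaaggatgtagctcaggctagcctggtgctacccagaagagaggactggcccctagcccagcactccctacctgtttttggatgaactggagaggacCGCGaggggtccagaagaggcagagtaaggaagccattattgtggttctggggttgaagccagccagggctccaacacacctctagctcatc

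The stretch of Gdf11 holds 33 CG and that of Nodal holds 3. Over the whole window, 250 bases before to 50 after the start, the counts were 36 and 5. Gdf11 and Nodal were picked as a contrast, and the ligand gene Gdf10, with 42 CpG and 0.452 CPM per kb, goes the other way.

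The type I receptors were led by Tgfbr1 (chromosome 4, 47353134 to 47414931), the signalling kinase of TGF-beta that also serves Gdf11, with an average log2 CPM of 7.47 and a level of 30.3 CPM per kb (26.8 to 30.9). Bmpr1a (chromosome 14, 34132687 to 34225379), a BMP type I receptor, followed with 6.99 and 20.9 CPM per kb (16.4 to 20.9). Acvr1b, the activin and nodal receptor, had 7.29 CPM per kb (6.82 to 7.29). These 3 lay above the median of all genes by the canonical transcript, but Acvr1b lay below it by the median transcript length. Acvr1, a BMP receptor, had 5.76 CPM per kb (3.19 to 5.90), Bmpr1b 1.87 (1.48 to 1.88) and Acvrl1, a receptor of the endothelium, 1.51 (0.432 to 1.51). The level of Bmpr1a was 11.2 times that of its close relative Bmpr1b, and 10.2 to 11.2 times over the length measures.

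All 4 type II receptors had a lower level than the leading type I receptors Tgfbr1 and Bmpr1a. The highest of them, Acvr2a (chromosome 2, 48703743 to 48793283), which binds activins, GDF11 and several BMPs, had an average log2 CPM of 6.21 and a level of 12.2 CPM per kb (7.34 to 14.4). Its relative Acvr2b had 2.56 CPM per kb (2.46 to 2.57). Bmpr2, the BMP-specific receptor, had 0.948 (0.678 to 1.40) and Tgfbr2, the TGF-beta-specific receptor, 0.735 CPM per kb (0.709 to 0.735), and the order of this last pair turned with the union of exons. Acvr2a made up 74.2% of the summed level of the type II receptors. The partners in the TGF-beta receptor pair were far apart: the level of Tgfbr1 was 41.2 times that of Tgfbr2 (37.7 to 42.2). The type III receptor Tgfbr3, betaglycan, which presents TGF-beta2 and inhibin, had 1.62 CPM per kb (1.44 to 2.13).

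The Smads carry the signal to the nucleus. By the canonical transcript, 6 of the 8 lay above the median of all genes, with Smad7 just under it and Smad9 far below. That median also moves with the length measure. Smad7 lay above it by each of the 3 other measures, and Smad2 lay below it by the median transcript length. Smad5 (chromosome 13, 56850797 to 56890190) had an average log2 CPM of 7.25 and a level of 21.8 CPM per kb (19.7 to 23.7). Smad1 (chromosome 8, 80065023 to 80126168) had 24.0 CPM per kb (8.17 to 24.9). The order of Smad1 and Smad5 turned with the longest transcript and with the union of exons. Smad9, the third BMP-regulated Smad (chromosome 3, 54662963 to 54708680), had 0.453 CPM per kb (0.420 to 0.453), and the level of Smad5 was 48.1 times as high (47.0 to 52.5). Nearly all of the summed level of the BMP-regulated Smads was thus that of Smad1 and Smad5.

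The activin- and TGF-beta-regulated Smads could be ordered less surely. Smad2 had the highest level of all Smads by its canonical transcript, 32.9 CPM per kb, but this transcript is only 1645 bases long, beside 11250 bases for the union of the exons of the gene, and by the other measures its level was as low as 4.81 CPM per kb and ranked 7th of 8. Smad3 had 19.9 CPM per kb (18.2 to 35.5) and the common partner Smad4 18.7 (15.9 to 19.7). Of the inhibitory Smads, which block the receptors and are themselves induced by the pathway, Smad6 had 7.48 CPM per kb (6.45 to 8.71) and Smad7 6.64 (6.30 to 37.7). By the median transcript length Smad7 was the highest of all Smads, just above Smad3.

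**Figure D2:**
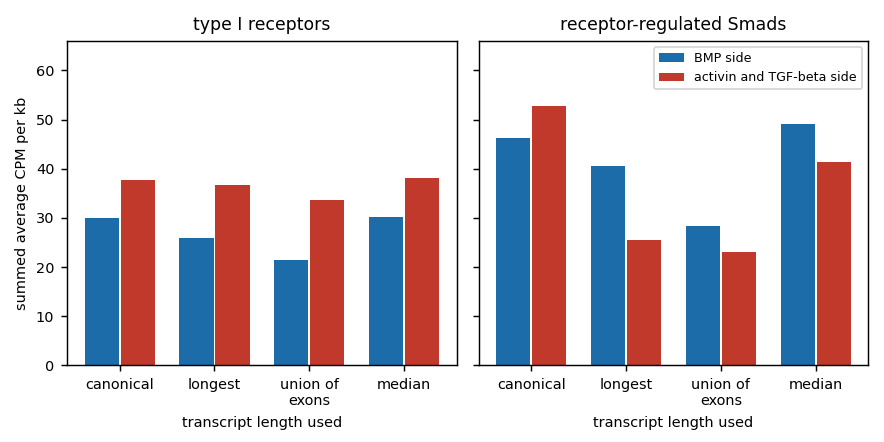
Summed level in average CPM per kb (y axis) of the BMP-side genes (blue; Acvr1, Acvrl1, Bmpr1a and Bmpr1b at the left, Smad1, Smad5 and Smad9 at the right) and of the activin and TGF-beta-side genes (red; Acvr1b and Tgfbr1 at the left, Smad2 and Smad3 at the right), for 4 measures of transcript length (x axis). At the receptors the red bars are the higher ones throughout, with a BMP share between 39.0% and 44.4%, whereas at the Smads the order changes with the length, with a BMP share of 46.7% by the canonical transcript and up to 61.3% by the longest.

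At the type I receptors, the BMP side held 30.0 CPM per kb, or 44.4% of the summed level, and the activin and TGF-beta side 37.6 CPM per kb. At the receptor-regulated Smads, the BMP side held 46.2 CPM per kb, or 46.7%, and the activin and TGF-beta side 52.8 CPM per kb. The order at the Smads turned under each of the 3 other length measures, where the BMP share was 54.3% to 61.3%. Which branch was ahead at the Smads thus depended on the length measure. RNA levels say nothing on phosphorylation, which was not measured here.

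Smad6 is the 1 pathway gene with a window whose start region held the palindrome GTCTAGAC, an element bound by Smad3 and Smad4 (the same letters on both strands), which 0.213% of all 32851 windows held. The stretch is shown in GRCm38.p6 at chr9:64022044-64022103 on the minus strand, with the palindrome in capitals, which begins 4 bases before the RefSeq start and runs across it.
Smad6: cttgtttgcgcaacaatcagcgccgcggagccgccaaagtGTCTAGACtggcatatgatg

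The inhibitors lay low as a group, with 1 of 8 above the median of all genes by the canonical transcript. Fst, follistatin, which binds activins and GDF11 and keeps them from their receptors (chromosome 13, 114588731 to 114595521), was the highest with 10.5 CPM per kb (4.18 to 10.5). By the median transcript length Fst lay below the median of all genes, which itself moves with the length measure. The BMP antagonists chordin (Chrd, 2.94 CPM per kb, 1.62 to 3.56) and noggin (Nog, 2.07 CPM per kb) came next, and their order turned with the union of exons. Bmper had 1.37 CPM per kb, the pseudoreceptor Bambi 1.28, Chrdl1 0.684 and Grem1 0.0930. Follistatin thus had a level 5.05 times that of noggin (2.02 to 5.05).

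Bmp1 and Bmp2k matched the choice by their names but are not ligands. Bmp1, the metalloprotease that trims procollagen and cleaves chordin, had 37.8 CPM per kb (12.3 to 37.8), and Bmp2k, a kinase named for its induction by BMP2, had 2.26 CPM per kb. Without them, 17 of 50 genes lay above the median of all genes.

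Other genes of the pathway were described by 5 lists of 73 genes, of which 69 had a row and 30 lay above the median of all genes. The intracellular regulators stood high, with 16 of 22 above it, led by Fkbp1a (125 CPM per kb), which keeps type I receptors silent in the absence of ligand, Strap (74.3), which binds TGF-beta receptors and Smad7, and the Smad corepressor Ski (45.0). Of 13 genes of latency and processing, 5 lay above it, led by Ltbp1 (21.1) and Fbn2 (13.0), which tether latent ligands in the matrix, and by the convertase Furin (11.5), which cuts the ligand precursors. Of 7 coreceptors and related receptors, 3 lay above it, the BMP coreceptors Rgma (40.4) and Rgmb (15.4) and Tgfbr3l (23.8). Of 15 other extracellular factors, 2 lay above it, Fstl1 (35.5) and Twsg1 (26.1), which encodes a chordin-binding protein, while Kcp (6.45) was just below. Of 12 other targets, 4 lay above it, led by Msx3 (15.2), a homeobox gene of the dorsal neural tube, Msx1 (12.3) and Hey1 (9.67).

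**Figure D3:**
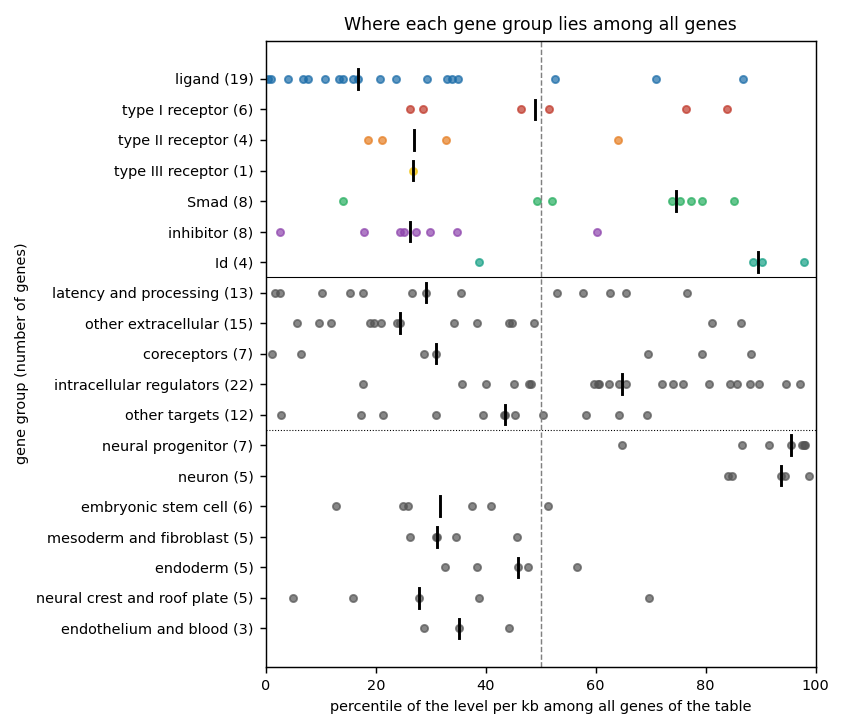
Percentile of the level per kb among all genes with a length (x axis) for each gene (points) of the pathway groups (upper block), the other pathway lists (middle block) and the cell type markers (lower block), with the median of each group as a black bar and the number of genes in parentheses; levels are averages over the 6 libraries of both genotypes. The Id genes, the Smads and the intracellular regulators lie mostly in the right part, the ligands mostly in the left part, and the neural progenitor and neuron markers at the right end apart from Fabp7 at percentile 64.7.

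Markers of neural progenitors and of neurons stood high. Of 8 neural progenitor markers chosen, 7 had a row and Sox1 had none. All 7 lay above the median of all genes, namely Msi1 (179 CPM per kb), Sox3 (163), Hes5 (149), Sox2 (87.4), Pax6 (52.0) and Nes (35.9), with Fabp7 (12.5) the lowest. The 5 neuron markers all lay above it as well, led by Tubb3 (268). Markers of other cells were mostly lower, although Foxd3 of the neural crest lay above Fabp7: embryonic stem cell markers lay between 0.388 CPM per kb for Nanog and 7.25 for Dppa5a (1 of 6 above the median of all genes), mesoderm and fibroblast markers between 1.53 and 5.55 (0 of 5), endoderm markers between 2.54 and 9.07 (1 of 5), neural crest and roof plate markers between 0.142 and 15.5 (1 of 5, Foxd3), and endothelium and blood markers between 1.91 and 5.18 (0 of 3). Of 6 mesoderm and fibroblast markers chosen, 5 had a row, and of 5 endothelium and blood markers chosen, 3 had one. The part of such cells in the levels of the pathway genes was not tested. Setd2 (chromosome 9, 110358262 to 110447701) had a level of 13.9 CPM per kb over both genotypes, which does not check the knockout.

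Of the 52 pathway genes, 10 overlap another gene of the table on the opposite strand. The average log2 CPM was -1.81 for Bmp8b beside 5.37 for its partner Ppie, 0.13 for Gdf9 beside 5.64 for Uqcrq, and 2.12 for Bmp6 beside 7.26 for Txndc5. The gap was smaller for the row named Gdf1 (4.44, beside 7.63 for Upf1) and for Tgfb3 (3.64, beside 4.14 for Ttll5). The partner was only a little lower for Acvr2a (6.21, beside 6.05 for Orc4) and for Bmp2k (4.12, beside 3.81 for Paqr3). For the others, Gdf11, Acvr1 and Chrd, the partner was further below. The libraries were made with a strand-specific kit, but the sources do not say whether strand was used in counting, so reads of such partners may be mixed.

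Where a pathway gene had a RefSeq window, its start region tended to hold more CpG than those of all genes of the table with a window. A RefSeq window was matched for 33 of the 52 genes, and these held a median of 28 CpG, against 21 over the 11849 genes of the table with a window. For a gene with several windows the highest count was taken. The count ranged from 4 in Bmp5 to 54 in Acvr2a. Of the 24 pathway genes above 21 CpG, 10 had a level above the median of all genes, against 2 of the 9 at or below it, which were Id3 (19 CpG) and Id2 (21 CpG). The same split was not made over all genes with a window. Across the 33 genes the CpG count and the level had a Spearman rho of 0.39 and a Pearson r of 0.36, close to the rho and r of 0.33 over all genes with a window, given here as a description across genes that are not independent replicates.

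**Figure D4:**
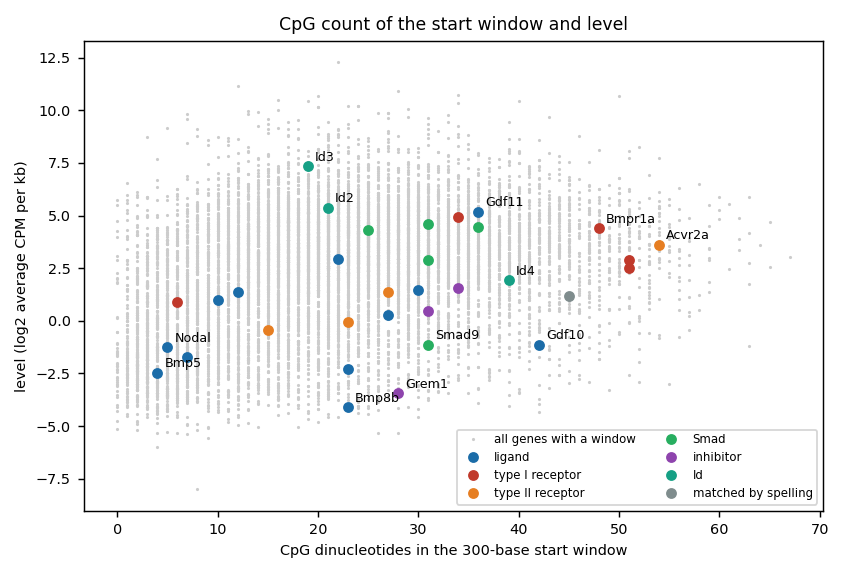
CpG count of the 300-base window around the RefSeq start (x axis) and level in log2 average CPM per kb (y axis) for the pathway genes with a window (coloured by role) over all genes of the table with a window (grey), from the average over the 6 libraries of both genotypes. Bmp5 and Nodal lie at the lower left with 4 and 5 CpG, Id3 lies highest with 19 CpG, and genes with many CpG, such as Gdf10 with 42, also occur at low levels.

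GGCGCC was present in 14 of the 40 windows of pathway genes (35%), those of 13 genes, against 11.9% of all 32851 windows and 20.5% of the 15115 windows of genes in the table. The 13 genes were Acvr1b, Bmp2k, Bmpr1a, Bmpr2, Chrd, Gdf1, Gdf10, Grem1, Id2, Id4, Smad5, Smad9 and Tgfbr1. They included genes with a high level, such as Tgfbr1 and Smad5, and genes with a low level, such as Grem1 and Smad9. GGCGCC contains a CpG, and the share was not compared at equal CpG content. AGCCAGAC, the CAGA box, was found on neither strand of the 40 windows, beside 1.29% of all windows, which says only that these letters are not in these windows.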

How the data were processed

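PolyA RNA of 3 Setd2-KO and 3 wild-type NPC samples was sequenced by the authors. The deposited table holds log2 values: the average log2 CPM over all 6 libraries, which was used here. Its other columns are the authors' own comparison of the genotypes (fold changes, p-values and FDR) and were not used, so no genotype comparison was made. Counts per library were not used here, so the depth is unknown. Per the submitters' processing notes, the tools were STAR, Trim Galore and edgeR and the builds mm9 and NCBIM37, while the methods of the paper give GRCm39, a GENCODE annotation and Salmon. Of the matched gene identifiers, 15053 had an older version than GENCODE vM39, so lengths and positions, taken from vM39 on GRCm39, may differ from the authors' annotation.

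The level is the average CPM divided by the length of the canonical transcript in kb. Alternatives were the longest transcript, the union of exons, the median transcript length, protein-coding genes only, and an average log2 CPM of at least 0. Motifs were sought on both strands of RefSeq windows (GRCm38.p6). Of the pathway genes, 51 were named and 1, which stays in the counts and medians, is not reported here, with the 3 highest of each further list and markers of 7 cell types. The members and lists were chosen with earlier results of these data known. The conversion to CPM per kb was tested on simulated counts with known transcript lengths, so the choice of length was not tested. The union of exons and the motif search were checked on short made-up examples, and the other steps were not tested. The work was done in Python 3.11.15 with numpy 2.4.6, pandas 2.3.3 and matplotlib 3.10.9.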

Additional observations from a re-analysis of the deposited data

How the results depend on the processing

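The number of pathway genes above the median of all genes (18 of 52) stayed within 1.5 times of itself under each of the 5 alternatives: 19 with the longest transcript, 19 with the union of exons, 15 with the median transcript length, 18 among protein-coding genes, and 15 of 44 once genes whose average log2 CPM was below 0 were left out. The median level of the pathway genes, 1.27 on the log2 scale of CPM per kb, was 1.12 with the longest transcript, 0.69 with the union of exons and 1.57 with the median length, where the median of all genes, 2.77, was 2.45, 1.89 and 3.10. With the filter on low values it was 1.57, beside 3.15 for all genes kept. Smad2 ranked first of the Smads by its canonical transcript and 7th by each of the 3 other measures, since its canonical transcript is short. Gdf11, Tgfbr1, Acvr2a, Fst and Id3 ranked first of their groups under all 4 measures. Of 43 neighbouring pairs in the order within a group, 11 were turned by at least 1 measure. The share of follistatin among the secreted inhibitors (54.2%) was 37.9% with the union of exons and 43.9% with the longest transcript, and the inhibitory share of the Smads (10.7%) was 29.6% with the median length. GGCGCC was in the windows of 11 genes when only the bases before the start were searched, against 13.

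No paired analysis was possible because the table holds no values per library. For the same reason no library was left out and no other pseudocount was set. Replicate error, depth and batch are thus unknown for every level given, and genes with an average log2 CPM below 0 rest on the fewest reads.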
